A study of Mus musculus with 9 samples.

Results

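The genes described here are 10 feedback regulators and transcriptional outputs of the ERK pathway in mouse embryonic stem cells (mESC): the dual-specificity phosphatases *Dusp4*, *Dusp5* and *Dusp6*, the Sprouty genes *Spry1*, *Spry2* and *Spry4*, the Sprouty-related genes *Spred1* and *Spred2*, and the ETS factors *Etv4* and *Etv5*. They were taken by gene symbol from a table of 29069 genes, and all 10 were among the 18156 genes with a mean above 5 normalized counts that were tested. A normalized count is a number of reads per gene after scaling of the samples to each other. RNA came from D3 mESC, an established line kept free of feeder cells, that had spent 24 h in one of 3 media (3 replicates per medium). Ground-state medium (GS) was a serum-free N2B27 medium with 1 μM of the MEK inhibitor PD0325901, 3 μM of the GSK-3 inhibitor CHIR99021 and 20 ng/mL of leukemia inhibitory factor (LIF). Differentiation medium (DM) was DMEM with 10% FBS and neither inhibitor nor LIF. The NO medium was DM with 250 μM of DETA/NO, a donor that releases nitric oxide. No sample was genetically modified, and a single cell line was used at passages given only as a range.

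In mESC the ERK pathway is driven mostly by autocrine FGF4. The signal runs from the FGF receptor through Ras and Raf to MEK, which phosphorylates ERK, and it opens the way out of naive pluripotency. ERK in turn induces genes that restrain it. Dusp phosphatases remove the activating phosphates from MAP kinases, Sprouty and Spred proteins act on the steps around Ras and Raf, and *Etv4* and *Etv5* encode transcription factors of the PEA3 group that are themselves induced by FGF signaling. Because PD0325901 blocks MEK, GS is the medium in which transcription driven by ERK is held down. DM and GS also differ in the GSK-3 inhibitor, LIF, serum and basal medium, and the share of each of these in any difference cannot be told apart.

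Short stretches of promoter sequence are shown for *Dusp5*, *Dusp6* and *Spry1*, the genes that rose in DM for which a promoter window was at hand. Windows from 250 bases before to 50 after the start of the gene (RefSeq, GRCm38.p6) were found for 7 of the 10 genes, in 8 windows. Each stretch runs 5′ to 3′ along the gene from 140 to 41 bases before its start, and capitals mark CArG boxes, the element to which serum response factor binds.
*Dusp5* (chr19:53529005-53529104, plus strand): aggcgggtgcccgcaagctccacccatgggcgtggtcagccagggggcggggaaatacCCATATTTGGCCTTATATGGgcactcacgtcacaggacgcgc
*Dusp6* (chr10:99263091-99263190, plus strand): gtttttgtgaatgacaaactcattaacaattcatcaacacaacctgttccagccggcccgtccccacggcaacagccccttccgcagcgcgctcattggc
*Spry1* (chr3:37639807-37639906, plus strand): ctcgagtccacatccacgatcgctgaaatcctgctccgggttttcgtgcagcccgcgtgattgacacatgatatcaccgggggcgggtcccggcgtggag

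*Dusp5* had 2 CArG boxes side by side, whose first bases lay 82 and 72 bases before the RefSeq start (53529145), which is 36 bases after the GENCODE start given with the gene's position. A CArG box was present in 1.6% of all 32851 promoter windows and in no other window of these genes. The ETS motif CCGGAA, searched on both strands, was found in 14.9% of all windows and in 1 of the 8, that of *Spry2*, after the start of the gene. The cAMP-response motif TGACGTCA (1.8% of all windows) and the AP-1 motif TGANTCA (7.8%) were found in none of the 8. A match is a description of the letters, and its absence says only that they are not in this window.

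From the gaps between low values, the libraries held an estimated 14307523 to 27080407 assigned reads, and 1 read was worth 0.70 to 1.32 normalized counts. *Dusp4* and *Dusp5*, the least abundant genes of the group, therefore rested on few reads in GS (30 to 59 normalized counts). NO replicate 2 stood apart, with a score on the first principal component (50.3% of the variance) of 131.2 against 25.9 and 67.1 in NO replicates 1 and 3 and -49.1 to -26.0 in the 6 other samples. The summed level of 9 pluripotency markers (*Pou5f1*, *Sox2*, *Nanog*, *Klf4*, *Zfp42*, *Esrrb*, *Tfcp2l1*, *Dppa4* and *Utf1*) ranged over 97009 to 99517 for GS, 77408 to 81672 for DM, and was 80310 and 78019 in NO replicates 1 and 3 and 49963 in NO replicate 2. The sum hides unequal members: in DM vs. GS *Tfcp2l1* was called lower (means 31053 and 11299), *Utf1* was called higher, and 5 of the 9 had a positive log2 fold change, with a median of 0.17. The 6 trophoblast markers summed to 657 to 685 for GS, 180 to 243 for DM and 350 to 1133 for NO, and *Cdx2* was at 0 in 2 DM samples. The 6 primitive endoderm markers summed to 118 to 176, 78 to 163 and 182 to 662, and 5 fibroblast markers to 312 to 492, 410 to 438 and 378 to 402. The fibroblast sum hides members that moved in opposite directions. *Thy1* was called higher than GS in DM and in NO (means 59.3, 195.7 and 166.7 in GS, DM and NO). *Col1a1* was called higher in NO than in GS and DM, and *Pdgfrb* fell in NO vs. GS (adjusted p-value from limma 0.0169). *Col1a2* and *Col3a1* passed in no comparison. The highest NO sums of the trophoblast and endoderm lists were both in replicate 2. The trophoblast sum hides unequal members too: in NO vs. GS *Krt7* was called higher and *Cdx2* and *Eomes* lower. In NO replicate 2 *Krt7* (484) and *Tfap2c* (426) were the highest of the 6. In bulk RNA, fewer cells of a type and less RNA per cell cannot be told apart, and the part of these markers in the results below was not tested. The samples of a medium were treated as replicates because the labels number them so, and p-values cover the spread between these samples, which may be partly technical.

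**Figure D1:**
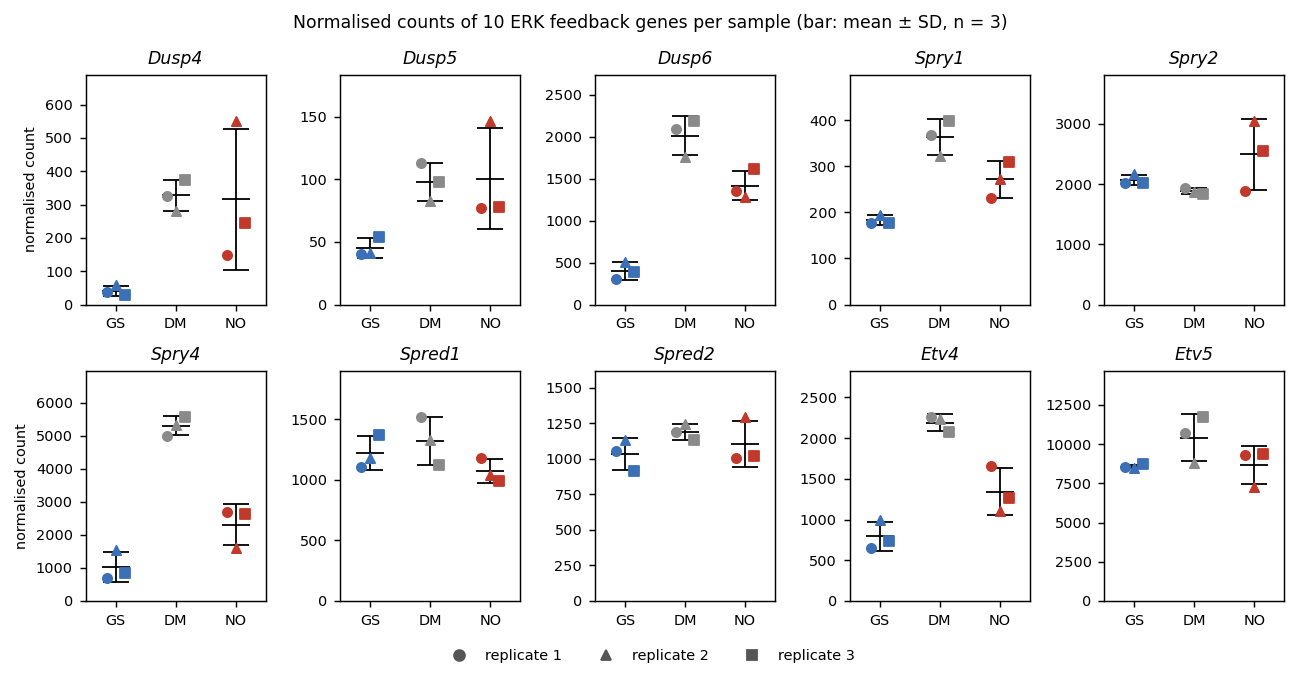
Normalized counts (vertical axes, each from 0) of the 10 genes in every sample of GS, DM and NO (horizontal axes). Symbols mark the replicate number and bars the mean ± SD of 3 samples. *Dusp6*, *Spry1*, *Spry4* and *Etv4* are lowest in GS and highest in DM with no overlap of the 3 media, whereas *Spred1* and *Spred2* overlap in all comparisons. Overlap was not counted over all genes.

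Levels between genes were compared per kilobase of exon. *Etv5* was the most abundant gene of the group in each medium, with GS, DM and NO means of 2090, 2541 and 2110 normalized counts per kb. *Spry2* was the next in GS (990.1 per kb) and in NO (1196 per kb), and in both media it overlapped no other gene of the group. In DM *Spry4* took this place with 1115 per kb, its lowest sample (1050.1) above the highest of *Spry2* (930.5). *Spry4* was the fifth gene of the order in GS, at 216 per kb, where *Etv4*, *Spred2* and *Spry4* each overlapped the next in the order. At the low end, *Dusp5* (18.2 per kb) and *Dusp4* (15.3 per kb) overlapped in GS. In DM *Dusp4*, at 119 per kb, lay within the range of *Spry1* (111 to 137 per kb) and well above *Dusp5* (39.6 per kb).

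DM was set against GS to ask which of these genes changed on release from the inhibitors and LIF into serum. Of the 10 genes 5 rose by at least 2-fold with an adjusted p-value under 0.05 (*Dusp4*, *Dusp5*, *Dusp6*, *Spry4* and *Etv4*), and none fell. Among all genes tested 2.94% were called higher and 1.27% lower by these thresholds. With *Spry1*, which rose by just under 2-fold, 6 genes had an adjusted p-value under 0.05, a rise that 4.37% of all genes showed. The median log2 fold change was 1.05 over the 10 genes and 0.00 over all genes. All 3 phosphatases rose, whereas *Spry2*, *Spred1*, *Spred2* and *Etv5* did not pass. P-values are from limma, adjusted by Benjamini-Hochberg over all genes tested. Whether the values of a gene overlap between media is a description, and the share without overlap over all genes was not counted.

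Of the phosphatases, *Dusp6* encodes a cytoplasmic enzyme selective for ERK (chromosome 10, 99263231 to 99267489, plus strand, GRCm38). It had 300, 507 and 389 normalized counts in GS replicates 1, 2 and 3 and 2090, 1755 and 2194 in DM replicates 1, 2 and 3. Every DM value was more than 3 times the highest GS value, a log2 fold change of 2.36 ± 0.19 (SE; adjusted p-value from limma 7.21e-05). *Dusp4*, a nuclear phosphatase that also acts on other MAP kinases (chromosome 8, 34807297 to 34819894, plus strand), had 37, 59 and 30 in GS and 326, 281 and 375 in DM. Its log2 fold change of 2.98 ± 0.40 (SE), or 7.89-fold, was the largest of the group (adjusted p-value from limma 0.00109). *Dusp5*, a nuclear phosphatase of ERK (chromosome 19, 53529109 to 53542431, plus strand), had 40, 41 and 54 in GS and 113, 83 and 98 in DM. The groups did not overlap, at a log2 fold change of 1.11 ± 0.29 (SE; adjusted p-value from limma 0.0412). This call depended on every GS and DM sample: leaving out any one of them, or NO replicate 3, gave adjusted p-values of 0.0545 to 0.145. It was lost in 11 of 18 alternatives in all, among them quantile normalization (0.0669), no minimum mean (0.0699) and no mean-variance trend (0.0576). In the annotation 22.1% of the exon bases of *Dusp5* overlap *AC137853.2* on the opposite strand, and use of the strand in counting was not given in the sources used here.

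Of the Sprouty genes, *Spry4* (chromosome 18, 38586247 to 38601415, minus strand) had 685, 1556 and 836 normalized counts in GS replicates 1, 2 and 3 and 4993, 5343 and 5573 in DM. GS replicate 2 was about as high as NO replicate 2 (1614) but far under every DM sample. It rose in DM by 2.46 ± 0.28 (SE) on the log2 scale, or 5.50-fold (adjusted p-value from limma 0.000368). *Spry1* (chromosome 3, 37639947 to 37644598, plus strand) had 176, 195 and 177 in GS and 368, 323 and 399 in DM. It rose by 0.98 ± 0.17 (SE) on the log2 scale, a 1.98-fold change (adjusted p-value from limma 0.00462), and 24.4% of its exon bases overlap *Gm42922* on the opposite strand. *Spry2* (chromosome 14, 105891947 to 105896819, minus strand) did not pass. It had 2014, 2163 and 2022 in GS and 1942, 1870 and 1838 in DM. All DM values lay under all GS values, but the difference was small, with a log2 fold change of -0.13 (95% confidence interval -0.49 to 0.22) and an adjusted p-value from limma of 0.711. The log2 ratio of *Spry4* to *Spry2* within a sample was -1.55, -0.47 and -1.27 in GS and 1.36 to 1.6 in DM.

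*Spred1* and *Spred2* encode membrane-bound proteins that bring neurofibromin, a Ras GTPase-activating protein, to Ras. *Spred1* (chromosome 2, 117121374 to 117182279, plus strand) had 1101, 1183 and 1373 normalized counts in GS and 1518, 1330 and 1121 in DM, which overlap. *Spred2* (chromosome 11, 19924375 to 20024026, plus strand) had 1053, 1135 and 913 in GS and 1186, 1241 and 1129 in DM, which overlap as well. The log2 fold changes were 0.11 (95% confidence interval -0.22 to 0.44) and 0.20 (-0.11 to 0.52), so that the intervals do not hold a 2-fold change in either direction.

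Of the ETS factors, *Etv4* (chromosome 11, 101769742 to 101785371, minus strand) had 654, 998 and 734 normalized counts in GS and 2261, 2239 and 2072 in DM. The groups were far apart, and the log2 fold change was 1.48 ± 0.19 (SE), or 2.80-fold (adjusted p-value from limma 0.000714). *Etv5* (chromosome 16, 22381309 to 22439719, minus strand) had 8516, 8496 and 8713 in GS and 10714, 8821 and 11738 in DM. Each DM value lay above each GS value, but with a log2 fold change of 0.27 (95% confidence interval -0.06 to 0.61) *Etv5* did not pass (adjusted p-value from limma 0.359). The log2 ratio of *Etv4* to *Etv5* was -3.70 to -3.09 in GS and -2.50 to -1.98 in DM.

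**Figure D2:**
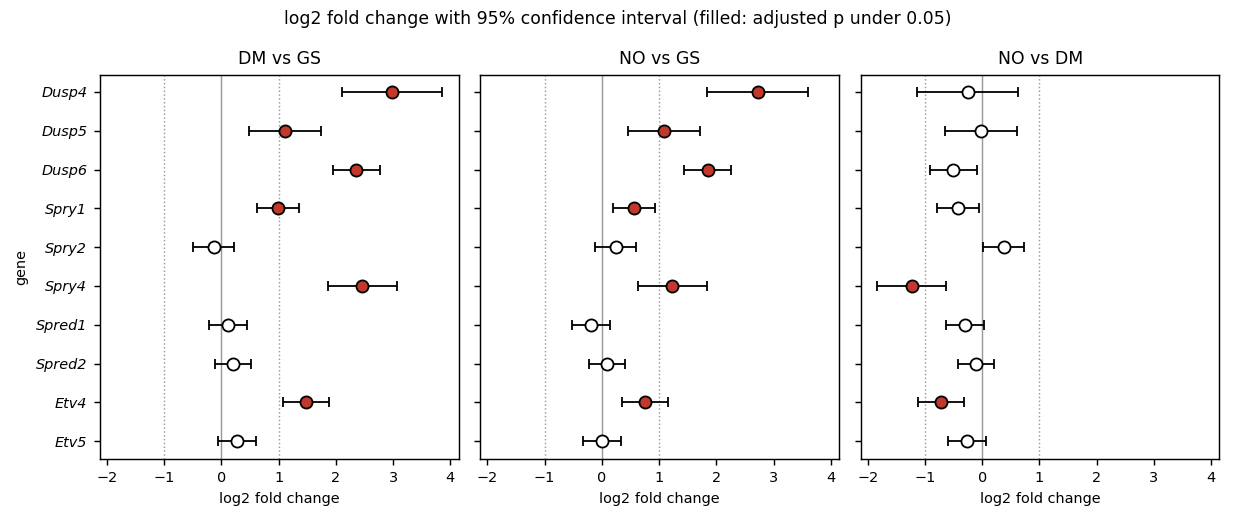
log2 fold change (horizontal axes) of each gene (vertical axis) in the 3 comparisons, with 95% confidence intervals from limma. Filled points had an adjusted p-value under 0.05 and dotted lines mark a 2-fold change. The comparisons with GS have 6 filled points each, and NO vs. DM those of *Spry4* and *Etv4*, both lower in NO.

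The comparison of NO with GS asked what changed when the cells left GS in the presence of the donor. The 6 genes that passed in DM passed here too, and none of the 10 fell. *Dusp4*, *Dusp5*, *Dusp6* and *Spry4* were higher by at least 2-fold. This is 4 of 10 genes, while 10.1% of all genes tested were called higher and 1.64% lower, and by the adjusted p-value alone 6 of 10 against 13.4%. Both comparisons share the GS samples and are not independent of each other. The median log2 fold change was 0.66 over the 10 genes and -0.02 over all genes. Leaving out GS replicate 1 left 2 of the 4 at 2-fold and the adjusted p-value.

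*Dusp6* had 1356, 1282 and 1615 normalized counts in NO replicates 1, 2 and 3, all above GS, and a log2 fold change of 1.85 ± 0.19 (SE; adjusted p-value from limma 0.00042). *Dusp4* had 149, 552 and 245, so that its NO samples differed by more than 3-fold among themselves while all lay above the highest GS sample. Its log2 fold change was 2.72 ± 0.40 (SE; adjusted p-value from limma 0.0013) and was 2.22 without NO replicate 2. *Dusp5* had 77, 147 and 78, again highest in replicate 2. Its log2 fold change of 1.09 (adjusted p-value from limma 0.0213) was 0.78 without that sample (adjusted p-value 0.0606). Without GS replicate 1 or 2 the adjusted p-value of *Dusp5* was 0.0714 or 0.0737, and after quantile normalization it was 0.106.

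*Spry4* had 2684, 1614 and 2646 normalized counts in NO and a log2 fold change over GS of 1.23 ± 0.28 (SE; adjusted p-value from limma 0.0101). The lowest NO value, that of replicate 2, was just above the highest GS value. Without GS replicate 1 the change was 0.98 on the log2 scale, just under 2-fold. *Etv4* had 1660, 1104 and 1267 in NO. It rose over GS by 0.76 ± 0.19 (SE) on the log2 scale, or 1.69-fold (adjusted p-value from limma 0.0149), and its adjusted p-value was 0.0667 without GS replicate 1 and 0.0613 without GS replicate 3. *Spry1*, with 231, 273 and 310 in NO, rose by 0.56 (adjusted p-value from limma 0.0369). That call was lost in 10 of 18 alternatives, with adjusted p-values up to 0.164. It was lost without any single one of GS replicates 1, 2 and 3, DM replicates 1 and 2 or NO replicates 2 and 3.

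The 4 other genes did not pass in NO vs. GS. *Spry2* had 1883, 3055 and 2548 normalized counts in NO, which range from below GS to well above it (log2 fold change 0.24, 95% confidence interval -0.11 to 0.60). Without NO replicate 1 it rose by 0.43 (adjusted p-value from limma 0.0363). *Spred1* had 1180, 1036 and 993 and *Spred2* had 1004, 1294 and 1018, and both overlapped GS. *Etv5* had 9330, 7266 and 9374, above GS in 2 samples and below it in replicate 2, and its log2 fold change was 0.00 (95% confidence interval -0.33 to 0.34).

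The comparison of NO with DM asked what the donor changed, since serum and basal medium were the same. *Spry4* fell by at least 2-fold and *Etv4* by less, and no gene of the group rose. This is 1 of 10 genes called lower, while 1.77% of all genes tested were called lower and 6.78% higher, and by the adjusted p-value alone 2 of 10 against 5.24%. The median log2 fold change was -0.28 over the 10 genes and 0.00 over all genes, and 9 of the 10 had a negative sign. NO vs. DM shares its DM samples with DM vs. GS, and these comparisons are not independent of each other. Of the calls over all genes in NO vs. DM 79.3% were higher, and 65.1% after quantile normalization. For NO vs. GS these shares were 86.0% and 67.5%.

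The 3 NO values of *Spry4* (2684, 1614 and 2646) lay far under the 3 DM values, the lowest of which was 4993. The log2 fold change was -1.23 ± 0.28 (SE), or 2.35-fold lower (adjusted p-value from limma 0.0156). Without NO replicate 2 it was -0.99, just short of 2-fold, with an adjusted p-value of 0.0445. Without DM replicate 2 the adjusted p-value was 0.0512. *Etv4* (1660, 1104 and 1267 in NO against at least 2072 in DM) fell by 0.72 ± 0.19 (SE) on the log2 scale, or 1.65-fold, with an adjusted p-value from limma of 0.0258. The groups did not overlap, but the adjusted p-value was 0.0516 to 0.0792 when any one of the DM samples or NO replicate 2 or 3 was left out.

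*Dusp6* and *Spry1* also had all 3 NO values under all 3 DM values, with log2 fold changes of -0.51 (95% confidence interval -0.92 to -0.09) and -0.42 (-0.79 to -0.06). Neither passed with adjustment over all genes (adjusted p-values from limma 0.0921 and 0.11). How many of all genes separate NO from DM in this way was not counted. *Dusp4* and *Dusp5* overlapped between NO and DM, at log2 fold changes of -0.25 (95% confidence interval -1.13 to 0.62) and -0.02 (-0.65 to 0.61). These wide intervals hold both no difference and a change of more than 1.5-fold. *Spry2* was the only gene with a positive sign (0.38, 95% confidence interval 0.02 to 0.73, adjusted p-value from limma 0.137), and its adjusted p-value was 0.0126 without NO replicate 1. *Spred1*, *Spred2* and *Etv5* overlapped between NO and DM and did not pass.

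**Figure D3:**
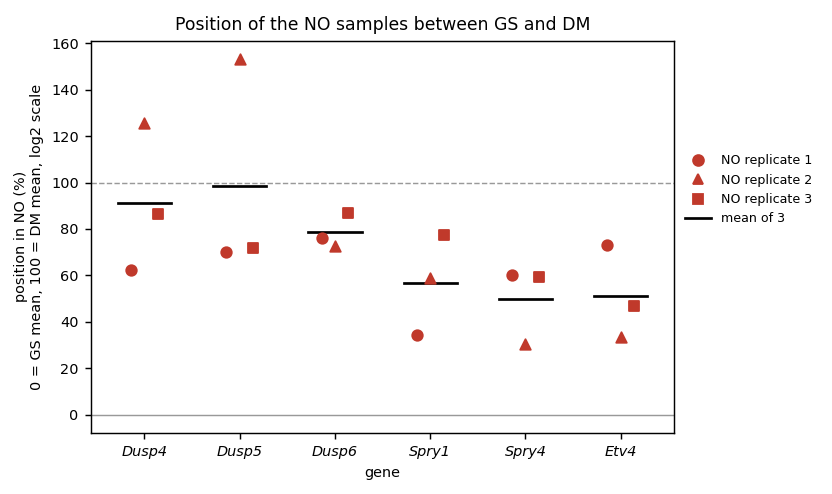
Position of each NO sample (symbols) and of the mean of the 3 (lines) for the 6 genes that rose in DM, on a log2 scale set to 0% at the GS mean and 100% at the DM mean (vertical axis). *Spry1*, *Spry4* and *Etv4* have means of 49.9% to 56.8%, and NO replicate 2 is the highest sample of *Dusp4* and *Dusp5* and the lowest of *Dusp6*, *Spry4* and *Etv4*. The DM samples that set 100% are also those by which the 6 genes were chosen.

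For the 6 genes that rose in DM, the place of NO between GS and DM can be given as a percentage of the way from the GS mean to the DM mean on the log2 scale. It was 49.9% for *Spry4*, 51.1% for *Etv4*, 56.8% for *Spry1* and 78.5% for *Dusp6*. It was 91.4% for *Dusp4* and 98.3% for *Dusp5*, but the replicates of these phosphatases were spread from 62.4% to 125.6% and from 70.0% to 153.4%. Without NO replicate 2 the means of the 6 genes lay closer together, at 74.4% for *Dusp4*, 70.8% for *Dusp5*, 81.5% for *Dusp6*, 55.9% for *Spry1*, 59.7% for *Spry4* and 60.0% for *Etv4*. Differences between genes in this measure were not tested.

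Within NO the genes took different orders. In replicate 2, *Dusp4*, *Dusp5*, *Spry2* and *Spred2* had their highest and *Dusp6*, *Spry4*, *Etv4* and *Etv5* their lowest NO value. Over all genes tested NO replicate 2 was the highest of the 3 for 41.8% and the lowest for 37.1%. It is the sample with the lowest pluripotency marker sum and the highest trophoblast and endoderm marker sums. Not every marker followed its sum in NO replicate 2 against NO replicates 1 and 3. *Sox2* was highest there (3122 against 2566 and 2749), and *Elf5* was lowest (4 against 7 and 9). *Eomes* (91 against 90 and 118) and *Sox7* (9 against 12 and 1) were not highest there. Within GS, replicate 2 was the highest sample for 7 of the 10 genes and replicate 1 the lowest for 7, against 26.2% and 31.8% of all genes. *Spry4* (1556 against 685 and 836), *Dusp6* (507 against 300 and 389) and *Etv4* (998 against 654 and 734) showed this most clearly.

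A moderated F test over the 3 media gave an adjusted p-value under 0.05 for 6 of the 10 genes, against 23.3% of all genes tested. The smallest was that of *Dusp6* (0.000128) and the largest of the 6 that of *Dusp5* (0.0224). *Spry2* (0.21), *Etv5* (0.292), *Spred1* (0.302) and *Spred2* (0.527) did not pass.

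**Figure D4:**
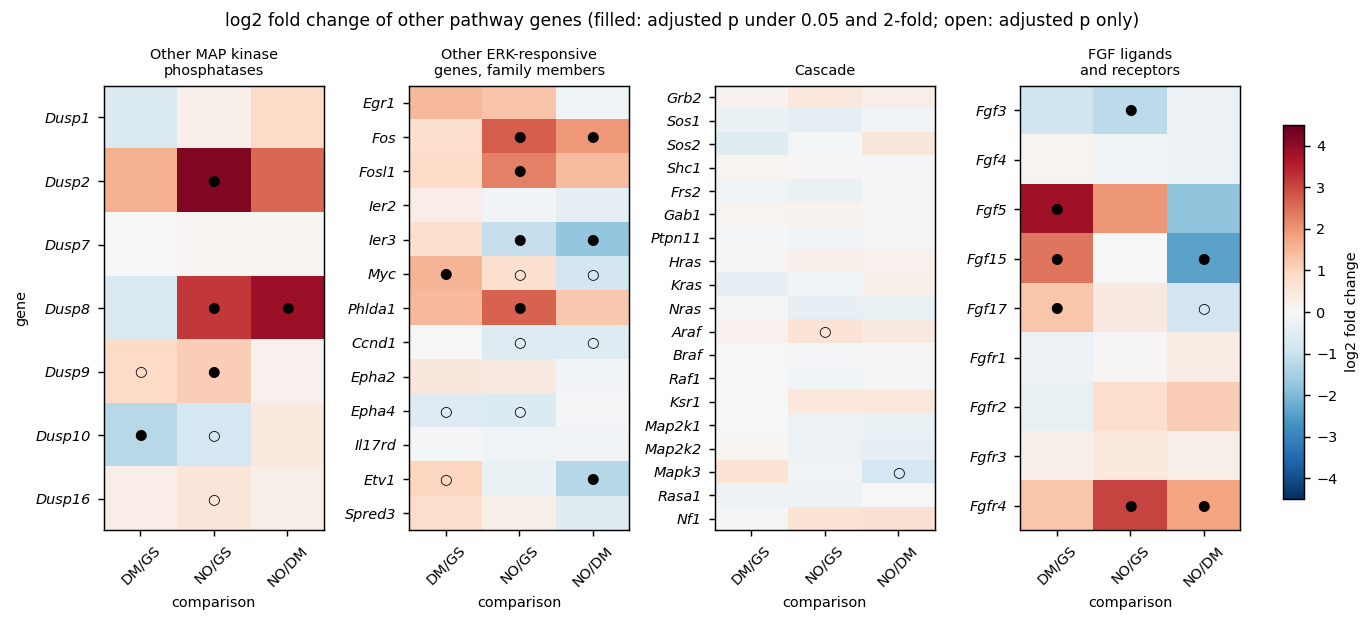
log2 fold change (color) of 48 other genes of the pathway (rows) in the 3 comparisons (columns), in 4 lists. Filled circles mark genes called with an adjusted p-value under 0.05 and at least 2-fold, and open circles an adjusted p-value under 0.05 alone. No gene of the cascade has a filled circle.

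Other genes of the pathway were described in 4 lists. Of 19 genes of the cascade analysed here, from the adaptors *Grb2* and *Frs2* over Ras and Raf to *Mapk3*, none was called by limma in any comparison. Among all genes tested 4.2% (DM vs. GS), 11.7% (NO vs. GS) and 8.55% (NO vs. DM) were called. An unadjusted p from limma under 0.05 was found for 2, 5 and 6 of the 19 genes in these comparisons. The share of all genes with such an unadjusted p was not counted, here or in the refits below, so these counts have no background. By the adjusted p-value alone, *Araf*, a Raf kinase, rose by 0.63 on the log2 scale in NO vs. GS (adjusted p-value from limma 0.0152), and *Mapk3*, which encodes ERK1, fell by 0.79 in NO vs. DM (0.0434). Both were chosen after their values were seen.

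Of 10 FGF ligand and receptor genes 9 were tested. In DM vs. GS 3 ligands were called higher and none of the 9 genes lower, against 2.94% and 1.27% of all genes tested. *Fgf15* had 21, 20 and 22 normalized counts in GS, 111, 109 and 127 in DM, and 52, 8 and 21 in NO. It was highest in DM, 5.29-fold over GS (adjusted p-value from limma 0.0141), and lower in NO than in DM by 5.32-fold (0.0113). *Fgf17* rose in DM by 1.26 (0.0124), and *Fgf5*, a marker of primed pluripotency, was listed at 0 in GS and had 22, 11 and 9 in DM (0.0159). *Fgf4* itself was not called in any comparison, at 4731 ± 191 in GS, 5185 ± 387 in DM and 4444 ± 1151 in NO (mean ± SD of 3 samples), and is named as the main ligand after its values were seen. The receptor gene *Fgfr4* rose in NO, with 186, 659 and 322 against 64, 31 and 34 in GS and 94, 81 and 128 in DM (log2 fold changes 3.03 and 1.77, adjusted p-values from limma 0.00106 and 0.0194). *Fgf3* fell in NO vs. GS by 1.17 (0.0183).

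All 7 other MAP kinase phosphatases on the list were tested. Among all genes tested 2.94% were called higher and 1.27% lower in DM vs. GS. In DM vs. GS only *Dusp10*, which acts on p38 and JNK, was called, and it fell from 126 ± 16.6 to 53.3 ± 11.8 normalized counts (SD, n = 3 each; log2 fold change -1.24, adjusted p-value from limma 0.0126). In NO vs. GS 3 were higher, as were 10.1% of all genes tested, and none lower by these thresholds. *Dusp9*, an ERK phosphatase, had 337, 274 and 239 in GS, 446, 525 and 613 in DM and 529, 666 and 620 in NO. It rose over GS by 0.90 on the log2 scale in DM (adjusted p-value from limma 0.0112) and by 1.10 in NO (0.00207), and NO and DM overlapped (0.477). *Dusp2* and *Dusp8* were at or under 8 in GS and reached 15, 162 and 54, and 17, 231 and 55 in NO replicates 1, 2 and 3. Replicate 2 again stood far above the other NO samples. *Dusp8* was also higher in NO than in DM (adjusted p-value from limma 0.0119).

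Of 14 other ERK-responsive genes and family members 13 were tested. *Myc* alone was called in DM vs. GS, where 2.94% of all genes tested were called higher and 1.27% lower. By the adjusted p-value alone 2 of the 13 rose and 1 fell, while 4.37% of all genes tested rose. Besides *Myc* these were *Etv1* (log2 fold change 0.96, adjusted p-value from limma 0.0341) and *Epha4* (-0.56, 0.0337). *Epha4* is named after its values were seen. *Myc* had 297, 503 and 339 normalized counts in GS, 1222, 1046 and 988 in DM and 655, 472 and 751 in NO. Its highest GS and lowest NO value were both in replicate 2, as for *Spry4* and *Etv4*, and its log2 fold change in DM was 1.54 ± 0.22 (SE; adjusted p-value from limma 0.00154). *Etv1*, the PEA3 factor next to *Etv4* and *Etv5*, had 308, 473 and 447 in GS, 824, 786 and 742 in DM and 451, 227 and 335 in NO. It was lower in NO than in DM by 1.27 on the log2 scale (adjusted p-value from limma 0.00801).

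The early-response genes *Fos* and *Fosl1* and the gene *Phlda1* were higher in NO than in GS. *Egr1* and *Ier2*, early-response genes of the same list, did not pass there (adjusted p-values from limma 0.0658 and 0.712). They are named after their values were seen. *Fos* had 41, 36 and 26 in GS, 60, 54 and 59 in DM and 112, 495 and 211 in NO, with log2 fold changes of 2.72 over GS and 1.96 over DM (adjusted p-values from limma 0.00175 and 0.0142). *Phlda1* and *Fosl1* rose over GS by 2.67 and 2.27 (0.00744 and 0.0134) but did not pass in NO vs. DM (0.164 and 0.0945). The highest NO value of *Fos*, *Phlda1* and *Fosl1* was in replicate 2. *Ier3* ran the other way, with 103, 121 and 98 in NO against 222, 386 and 560 in DM (log2 fold change -1.76, adjusted p-value from limma 0.0065). *Ier3* was called lower in NO vs. GS too (log2 fold change -1.03, adjusted p-value from limma 0.0385). In NO vs. GS 3 of the 13 genes were called higher and 1 lower, against 10.1% and 1.64% of all genes tested. Of the 48 genes in the 4 lists, DM vs. GS had 5 called in either direction (4.2% of all genes tested were), NO vs. GS 9 (11.7%) and NO vs. DM 6 (8.55%).

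The genes outside these lists whose pattern over the 9 samples was most like the mean standardized profile of the 10 genes were *Dnmt3l*, *Enpp2*, *Mkrn1*, *Slc7a7* and *Zfp532*, with Pearson coefficients of 0.991, 0.989, 0.984, 0.98 and 0.975. The samples share a medium in groups of 3, and the coefficients are a description. *Dnmt3l* had 2943, 3815 and 3298 normalized counts in GS, 12314, 10411 and 10297 in DM and 5805, 6954 and 6817 in NO. The coefficients of the members themselves with this profile ranged from 0.961 for *Dusp6* to -0.01 for *Spry2*. Each member is part of the profile, which raises its coefficient, so these values cannot be set beside those of the outside genes.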

How the data were processed

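The 10 genes, the gene lists and the tests were chosen with earlier results of these data known. The authors sequenced RNA freed of ribosomal transcripts (Ion Torrent Proton), trimmed reads with Reaper, aligned them to GRCm38 with STAR 2.4.0a and counted them over exons with featureCounts 1.4.5-p1, leaving out ambiguous reads. The deposited values are a normalized score, counts after DESeq2 scaling by the authors in whole numbers, and not raw counts. A count model was therefore not used. Recomputed size factors were 1.0038 to 1.0083. A column with sums over samples was not used.

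Values were analyzed as log2(value + 1) with limma 3.58.1 in R 4.3.3, all 9 samples in one fit, media as groups, moderation with a mean-variance trend, two-sided tests and Benjamini-Hochberg adjustment over 18156 genes with a mean above 5. Genes with an adjusted p-value under 0.05 and at least 2-fold change were called. Fold changes on this scale understate changes of low genes. The depth estimate and the fit were tested on simulated data. Named are all 10 genes, of each list and comparison up to 3 called genes with the smallest adjusted p-value, and the 5 genes most like the mean profile. Single marker genes, and genes said to be chosen after their values were seen, are named besides. One gene of the cascade list is not reported here. Positions and exons are from GENCODE M21 (GRCm38). Same-numbered DM and NO samples deviated together from their group means (correlations 0.16, 0.17 and 0.30 across genes), and those of GS and DM (-0.23 to 0.02) or GS and NO (-0.11 to 0.05) did not. Alternatives were the replicate number as a block, only the 6 samples compared, pseudocounts of 0.5 and 5, no minimum mean or one of 50, other fold thresholds, quantile and total scaling, no trend, and leaving out each sample.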

Additional observations from a re-analysis of the deposited data

How the results depend on the processing

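Of 540 refits of the 30 fold changes of the 10 genes (18 alternatives each), 493 kept direction and side of the threshold, 35 lost it, 2 gained it and 10 changed sign. The sign changed for *Etv5* in NO vs. GS (-0.058 to 0.13 over the left-out replicates) and *Spred2* in NO vs. GS (-0.026 to 0.16). It also changed for *Dusp4* in NO vs. DM (-0.76 to 0.18) and *Dusp5* in NO vs. DM (-0.32 to 0.14, and 0.063 with equal totals). In the fit as reported these log2 fold changes were 0.00, 0.09, -0.25 and -0.02, and that of *Dusp4* was the farthest from 0. With a minimum log2 fold change of 2 instead of 1, the comparisons DM vs. GS, NO vs. GS and NO vs. DM had 3, 1 and 0 calls among the 10 genes. With no minimum 2 were called in NO vs. DM, and without a mean-variance trend 0, where *Spry4* had an adjusted p-value from limma of 0.0538 (0.00805 to 0.0538 over its 18 alternatives) and 4 of the 10 an unadjusted p under 0.05 (5 in the fit as reported). Leaving out one replicate gave 4 to 5, 2 to 4 and 0 to 1 called genes in the 3 comparisons, the 0 being without DM replicate 2 or NO replicate 2 (5 and 4 with an unadjusted p under 0.05). For the 4 other lists, leaving out one replicate gave 2 to 8, 5 to 10 and 4 to 11 calls, no minimum fold change 8, 15 and 10, and a minimum of 2 on the log2 scale 2 for DM vs. GS and 2 for NO vs. DM. With only the 6 samples compared 8 were called in DM vs. GS.

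With the replicate block 4, 4 and 1 of the 10 genes were called, in the same order of comparisons. The block changed no call of the 10 genes in NO vs. DM, where same-numbered samples deviated together (correlations 0.16, 0.17 and 0.30). It was fitted over all 9 samples, GS included, and so does not test pairing of DM with NO alone. In the other comparisons *Dusp5* in DM vs. GS and *Spry1* in NO vs. GS had adjusted p-values from limma of 0.0757 and 0.0566 with the block. Over all genes, 763, 2127 and 1552 were called, 505, 1206 and 936 with a minimum mean of 50, 1215, 3640 and 2587 with no minimum fold change, 242, 926 and 660 with a minimum log2 fold change of 2, and 912 in NO vs. DM with only those 6 samples. Leaving out one replicate gave 806 to 2512 in NO vs. DM, the lowest without NO replicate 2 and the highest without NO replicate 1. Equal totals moved the median log2 fold change of all genes in NO vs. GS from -0.02 to 0.09, quantile normalization to -0.11. Depth limits chiefly *Dusp4* and *Dusp5* in GS.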
